A study of Arabidopsis thaliana with 16 samples.

Results

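Untreated seedlings of Arabidopsis thaliana, wild type (WT, accession Col-0) and the triple mutant wrky18 wrky40 wrky33, were compared at 0 h by the DNA regions that an anti-WRKY serum recovered from their chromatin. The comparison rests on 4 of the 16 samples of the series, 2 biological replicates of each genotype, chosen by genotype and time from the labels. Each of these 4 immunoprecipitated libraries has its own peak list, and the series holds 8 such lists. The other 4 come from the same genotypes 2 h after 1 µM flg22, the flagellin peptide that starts pattern-triggered immunity. They served as libraries in which the 0 h regions could be looked up. In a count added after the values had been seen, they were also merged with the 0 h lists. The 8 remaining samples are input DNA and have no list here.

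All plants were 12 days old and were grown in MS medium under long days, and whole seedlings were pooled for each precipitation. In the mutant the genes WRKY18, WRKY40 and WRKY33 are mutated in every cell of the plant, and the labels do not give the alleles. The serum was raised against WRKY proteins in general, so a peak does not say which family member was bound. The mutant keeps all other WRKY genes, and 71 WRKY genes were counted for this comparison.

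WRKY proteins are transcription factors of plants and recognise the W-box, a short DNA element common in the promoters of defence genes, among them many WRKY genes themselves. WRKY18 and WRKY40 are close relatives known mainly as repressors that restrain defence in unchallenged plants. WRKY33 is known for activating the genes of camalexin, an antimicrobial indole compound, and for resistance to fungi that kill their host.

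The peak lists at 0 h held 1372 and 1466 peaks in WT and 1447 and 1720 in the mutant. The mean was 1419 ± 66.5 peaks in WT and 1583.5 ± 193 in the mutant (SD, n = 2 each). The difference was 164.5 peaks (exact permutation test, two-sided, p = 0.667), and with 2 lists against 2 this test cannot give a p below 0.333. The mutant list was the longer in both replicate pairs, and with signs permuted within pairs the exact p was 0.5, the smallest that 2 pairs can give. Peaks sat in like places in both genotypes. Promoter peaks made up 67.4% and 67.1% of the WT lists and 66.7% and 66.9% of the mutant lists (exact permutation p = 0.333). Intergenic peaks made up 13.4% and 13.6% in WT and 14.4% and 14.0% in the mutant (exact permutation p = 0.333). The 6005 peaks merged into 2507 regions, where peaks that shared at least 1 bp were joined, with a median width of 473 bp. Read counts per library were not used here, and the depth of each list is unknown.

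The replicate number separated the lists more than the genotype did. Median peak width was 534.5 bp in WT replicate 1 and 541 bp in mutant replicate 1, against 354 and 355 bp in replicate 2 of each. WT and mutant lists of the same number shared 61.8% (replicate 1) and 63.9% (replicate 2) of their regions, as a percentage of the regions called in either. Lists of the same genotype shared 42.1% in WT and 42.8% in the mutant. At regions called in all 4 lists, the score ranks of WT and mutant had a Spearman rho of 0.812 in replicate 1 and 0.775 in replicate 2, against 0.386 between the WT replicates and 0.341 between the mutant replicates. These coefficients describe 683 regions, and lists of the same number share a biological replicate.

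WT replicate 1 stands apart in another way. Its region numbers run to 1508 while it lists 1372 peaks, so 136 numbers (9.02%) are absent, and no other 0 h list has gaps. Of the regions called in the other 3 lists, 135 lacked a call in WT replicate 1, against 87 for WT replicate 2, 84 for mutant replicate 1 and 53 for mutant replicate 2. In 4 of the 135 the other 3 lists placed the peak above the 90th percentile of score, and no such region was missing from any other list. One of the 4 was the promoter of the receptor-like protein gene RLP32, at percentiles of 100.0 in WT replicate 2, 99.2 in mutant replicate 1 and 100.0 in mutant replicate 2. The others were AT1G52200, AT3G26910 and AT5G47225. All 4 had a peak in the 2 h list of WT replicate 1, at percentiles from 88.0 to 99.6. A region absent from that list is therefore not shown to be unbound in WT. An absent peak can add a region to those called in the mutant alone or take one from those called in WT alone, and the size of either effect was not tested.

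Of the 2507 regions, 19 were called in both WT lists and neither mutant list (0.758%), and 40 were called in both mutant lists and neither WT list (1.6%). Both counts are small beside the 683 regions called in all 4 lists. Pairs of lists with the same replicate number and no others held 252 regions (replicate 1) and 333 regions (replicate 2). A further 757 regions were called in 1 list. The pairs that cross both genotype and replicate number, WT replicate 1 with mutant replicate 2 and WT replicate 2 with mutant replicate 1, held 41 and 23 regions, close to the counts for the genotypes. Within replicate pair 1 there were 295 regions called in WT and not in the mutant and 370 the other way. Within pair 2 there were 226 and 471. Which genotype had the larger count depended on the peaks used. With the same number of top peaks from every list the counts were 26 for WT alone and 22 for the mutant alone. With an ef score, another score of the authors, of 5 or more they were 36 and 27.

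**Figure D1:**
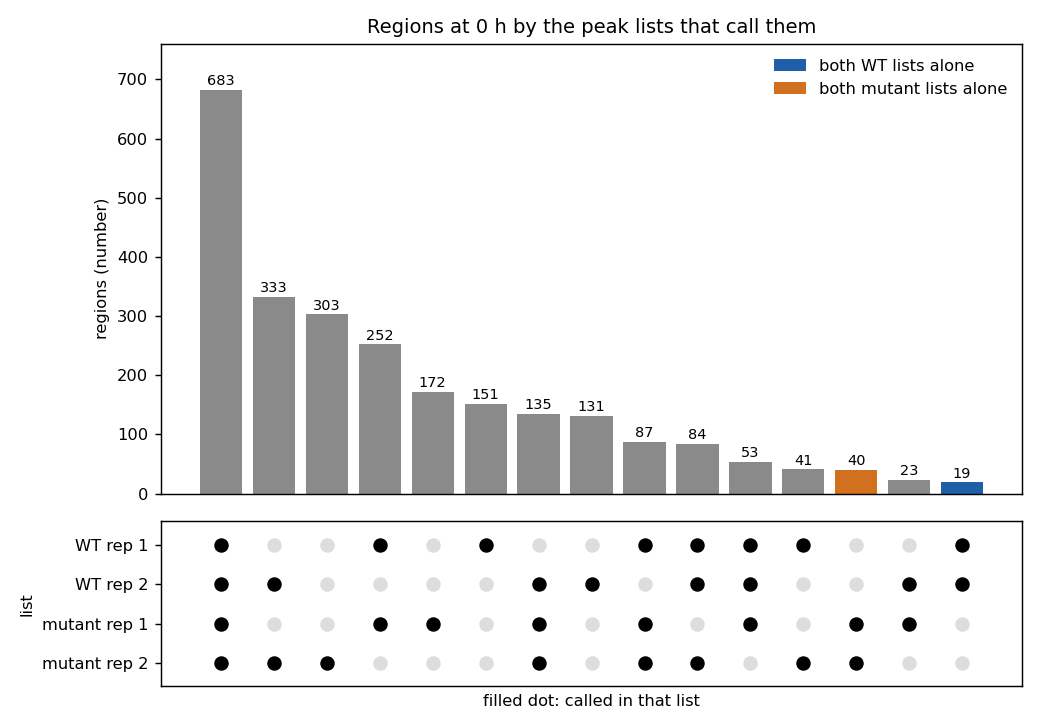
Number of regions at 0 h (vertical axis) for each combination of the 4 peak lists that call them, shown by filled dots. The tallest bar is the 683 regions called in all 4 lists, and the blue and orange bars, the 19 regions of WT alone and the 40 of the mutant alone, are among the lowest.

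The mutated genes themselves gave the clearest contrast, at WRKY33. A peak lay over its promoter on chromosome 2 (TAIR10) in WT replicate 1, at 16107685 to 16108817, and in WT replicate 2, at 16107937 to 16108404. Their maxima lay at 16108133 and 16108136, and their score percentiles within the list were 82.9 and 94.0 (100 is the top peak). Neither mutant list had a peak over that promoter. Mutant replicate 1 had no peak at WRKY33, and mutant replicate 2 had one in an intron, at 16108798 to 16109080, with a percentile of 58.5. This intronic peak overlapped the wide peak of WT replicate 1 by 20 bp and lay 393 bp from that of WT replicate 2.

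Because of those 20 bp the WRKY33 locus counts as 1 region called in 3 lists and is not among the 19. It is called in WT alone when peaks must share 50% of the shorter one to be joined, and also when peaks are cut to 150 bp around their maximum. Under the second rule 15 of the 19 regions of WT alone stayed in that class, and WRKY33 was the 1 region that entered it. Its mean percentile of 88.5 is above that of every one of the 19, whose highest is 67.5.

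The 2 h lists, which the 0 h calls did not use, had the promoter peak in both WT replicates (percentiles of 94.2 and 93.3) and in neither mutant replicate. Mutant replicate 2 again had the intronic peak (42.3). When the 8 lists of both times were merged with peaks cut to 150 bp, which gave 4250 regions, WRKY33 was the 1 region called in all 4 WT lists and in no mutant list. The regions called in all 4 mutant lists and no WT list were 2, at AT1G70770 and AT4G38810, with percentiles from 7.67 to 55.3. With 1 bp of overlap, 0 regions were called in all 4 WT lists and no mutant list. With cut peaks, 3 regions were called in all 4 WT lists and 1 mutant list. In the other direction, 17 were called in all 4 mutant lists and 1 WT list. This count over both times was chosen after the values had been seen, and it includes the 0 h lists in which WRKY33 already stood out. Whether the DNA of the WRKY33 promoter can be recovered from the mutant was not tested here, since the input libraries have no list.

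WRKY40 showed no such contrast in calls. It had an upstream region on chromosome 1 at 30380020 to 30380820 in all 4 lists, at percentiles of 88.0 and 99.9 in WT and 93.6 and 99.9 in the mutant. A second region, in its promoter at 30382268 to 30383241, had 71.2 and 95.7 in WT and 53.1 and 98.5 in the mutant. In both regions the genotypes overlap and replicate 2 is above replicate 1. WRKY18 had a single weak peak at 0 h, in WT replicate 2 on chromosome 4, with a percentile of 13.0. It lay at -1229 bp from the transcription start site (TSS, negative values upstream). At 2 h WRKY18 had a peak in WT replicate 2 (38.4), mutant replicate 1 (1.02) and mutant replicate 2 (25.3).

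**Figure D2:**
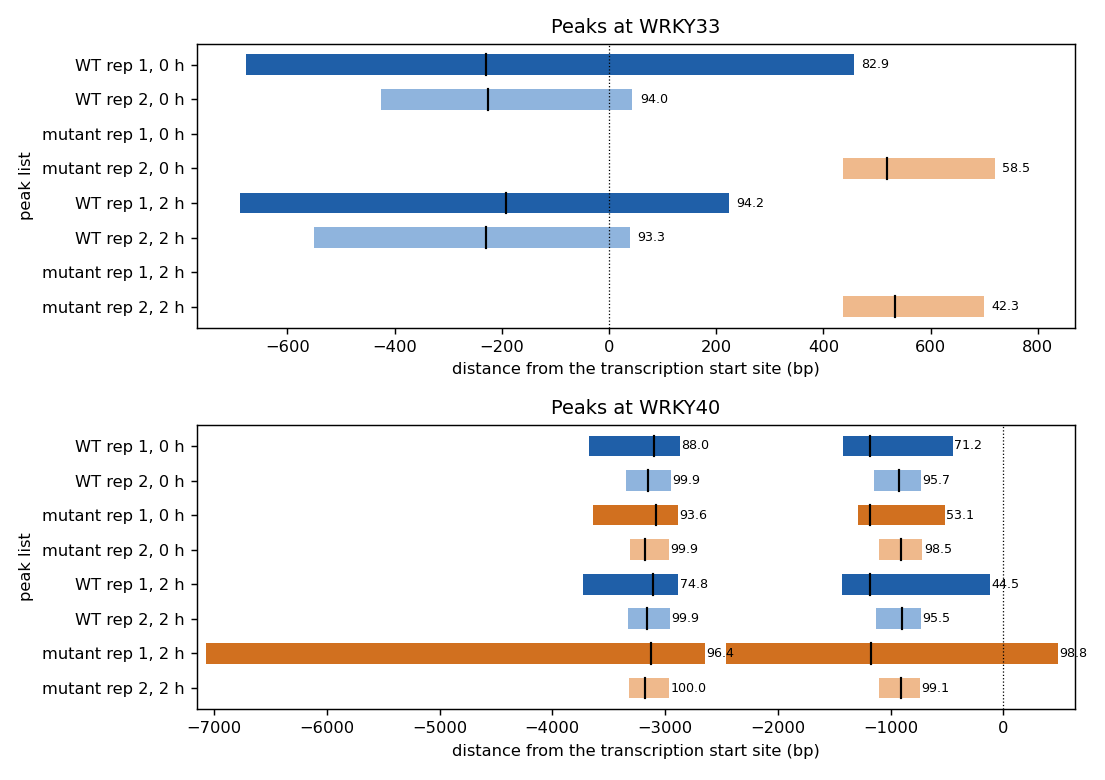
Peaks at WRKY33 (top) and WRKY40 (bottom) in the 8 lists, as bars along the distance from the TSS in bp, with a black tick at each peak's maximum and the score percentile beside it. At WRKY33 the 4 WT lists have a peak whose maximum is upstream of the TSS and the mutant lists have none there, while both WRKY40 sites are covered in every list.

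Among the other WRKY genes no region was called in both lists of one genotype and neither of the other. Of the 71 WRKY genes, 15 and 17 had a peak in the WT lists and 13 and 17 in the mutant lists. In all 4 lists 9 had one. Of 27432 protein-coding genes, 1258 and 1351 had a peak in the WT lists and 1312 and 1558 in the mutant lists. WRKY30 and WRKY53, both known to respond quickly to defence signals, were among the strongest. WRKY30 had percentiles of 95.4 and 96.0 in WT and 97.9 and 94.5 in the mutant at its promoter. The promoter of WRKY53 had 93.7 and 89.6 in WT and 95.5 and 92.8 in the mutant. Neither separated the genotypes.

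The other regions in all 4 lists were at WRKY8, WRKY15 (2 regions), WRKY17, WRKY41, WRKY48 and WRKY60. WRKY60, the closest relative of WRKY18 and WRKY40, had 81.2 and 29.2 in WT and 62.3 and 44.4 in the mutant. WRKY41 was the 1 WRKY region in all 4 lists whose genotypes did not overlap, with 54.7 and 35.1 in WT and 31.2 and 26.0 in the mutant, and it did not pass the limma test described below.

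WRKY47 had a promoter peak at 45.2 and 24.8 in WT, none in mutant replicate 1 and one at 74.0 in mutant replicate 2. WRKY11 had regions in WT replicate 2 and in the mutant and none in WT replicate 1. The promoter of WRKY7 was called in replicate 2 of both genotypes (91.4 in WT and 96.0 in the mutant) and in replicate 1 of neither. WRKY22 had its region in replicate 2 of both genotypes as well, and WRKY51 and WRKY71 had theirs in replicate 1 of both. WRKY28 was called in WT replicate 1 and mutant replicate 2. WRKY4, WRKY23, WRKY26, WRKY29, WRKY42 and WRKY49 had a peak in 1 list each. Second regions at WRKY17 and WRKY53 were missing from WT replicate 2 and from both replicates 1, respectively.

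The 19 regions of WT alone were mostly weak. Their median percentile was 20.9 in WT replicate 1 and 16.5 in WT replicate 2, against 67.9 and 66.7 for regions called in all 4 lists. In 17 of the 19 both lists placed the peak below the median, and in 1 both placed it above. Promoters held 11 of the 19 (57.9%), against 66.6% of all regions.

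The strongest was at CPK30, a calcium-dependent protein kinase, on chromosome 1 at 28082779 to 28083547. The peak lay at -519 bp from the TSS and had percentiles of 78.1 and 56.9. It was the 1 region above the median in both WT lists. At AT5G60710, a zinc finger protein gene, the region had 84.9 and 24.8. The promoter of WAKL22, also known as RFO1 and as a wall-associated kinase gene for resistance to Fusarium, had 43.8 and 25.9, on chromosome 1 at 29979198 to 29979646, at -72 bp from the TSS. All 3 were called in both mutant lists at 2 h, so their absence from the mutant did not recur there.

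MYB96, a regulator of cuticular wax and abscisic acid responses, had a promoter region at 29.4 and 22.5 in WT alone. The same gene had another region, 2821 bp downstream of the TSS, in all 4 lists, with 47.9 and 39.0 in WT and 65.4 and 50.3 in the mutant. Of the genes of the 19 regions, 3 were called elsewhere in both mutant lists and 16 in neither. The other regions with the highest percentiles were at AT5G16110, AT2G24693 (a defensin-like protein), AT2G41225, ZFP4, ATMND1, AT3G11180, the nitrate and abscisic acid transporter NRT1:2, and AT4G00890, with mean percentiles down to 17.7. Those not named had means from 3.32 to 13.9.

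The 40 regions of the mutant alone were weak too, and more of them had a strong peak in 1 list. Their median percentile was 19.5 in mutant replicate 1 and 26.6 in mutant replicate 2, against 68.5 and 71.6 for regions called in all 4 lists. In 1 region both lists were above the median, in 14 one of them was, and in 25 neither. Promoters held 30 of the 40 (75%). Their genes included 8 from the 12 gene lists counted below, 20%, against 10.5% (2 regions) of those of WT alone and 5.82% of all regions, a description of lists chosen with results of these data known.

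The 1 region above the median in both was at AT2G39518, a membrane protein gene, on chromosome 2 at 16496887 to 16498468, with 63.6 and 66.1. It was called in all 4 lists at 2 h. FOX1, an oxidase gene of indole carbonyl nitrile synthesis, had a promoter region on chromosome 1 at 9128408 to 9129291, with 90.5 in mutant replicate 1 and 11.4 in mutant replicate 2. At 2 h this region was at 99.7 and 94.4 in WT and 99.6 and 78.7 in the mutant. IGMT2, a methyltransferase of indole glucosinolates, had a region at -1851 bp from the TSS, with 75.4 and 28.5. Its own promoter was called in all 4 lists, at 82.6 and 68.3 in WT and 82.3 and 72.5 in the mutant.

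Of the genes named here by rank or gene list, several encode receptors, as do WAKL22 of WT alone and CERK1, called in all 4 lists. The regions not so named include AT5G49760, a leucine-rich repeat protein kinase-like gene (70.2 and 0.436). They also include AT1G58410, a putative disease resistance gene (3.70 and 31.5). What share of all regions lay at receptor genes was not counted. PSY1R, the receptor of a sulfated growth peptide, had 18.6 and 75.8. RLP12, a receptor-like protein, had 76.0 and 1.86. PEPR1, the receptor of the damage peptides made from PROPEP precursors, had 17.1 and 56.3 in its promoter on chromosome 1 at 27483691 to 27484414. CRK2 and CRK5, cysteine-rich receptor-like kinases, had 33.5 and 35.2, and 9.50 and 19.2. ZAR1, an intracellular immune receptor, had the lowest values, 2.14 and 1.86. In each of these 6 named regions the WT lists had no peak, and CRK5 had another region in WT replicate 1. At 2 h the regions of PEPR1 and CRK2 were called in all 4 lists. That of RLP12 was called in WT replicate 1 and both mutant lists. Those of PSY1R and CRK5 were called in replicate 2 of both genotypes, and that of ZAR1 in no list.

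DWF4, a rate-limiting enzyme of brassinosteroid synthesis, had 12.2 and 69.3 in its promoter. ACS6, an ethylene synthesis enzyme, had 13.9 and 19.2 at -179 bp from the TSS, beside an upstream region called in all 4 lists (95.4 and 39.0 in WT, 96.6 and 42.4 in the mutant). HSFA4A, a heat stress factor, had 32.2 and 9.59. The remaining named regions were at CRL2 (38.9 and 62.1), AT1G14340 (31.2 and 60.5), BPS1 (33.5 and 52.3), AT5G16210 (24.9 and 54.5), AT1G66553 (13.9 and 64.8) and AT2G42360, which RefSeq names as the ubiquitin ligase ATL41 (38.1 and 39.9). The other 22 regions had means from 8.04 to 38.1. Which of the mutant lists was the higher varied from region to region. Of the genes of the 40 regions, 3 were called elsewhere in both WT lists, 2 in 1 of them and 35 in neither.

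**Figure D3:**
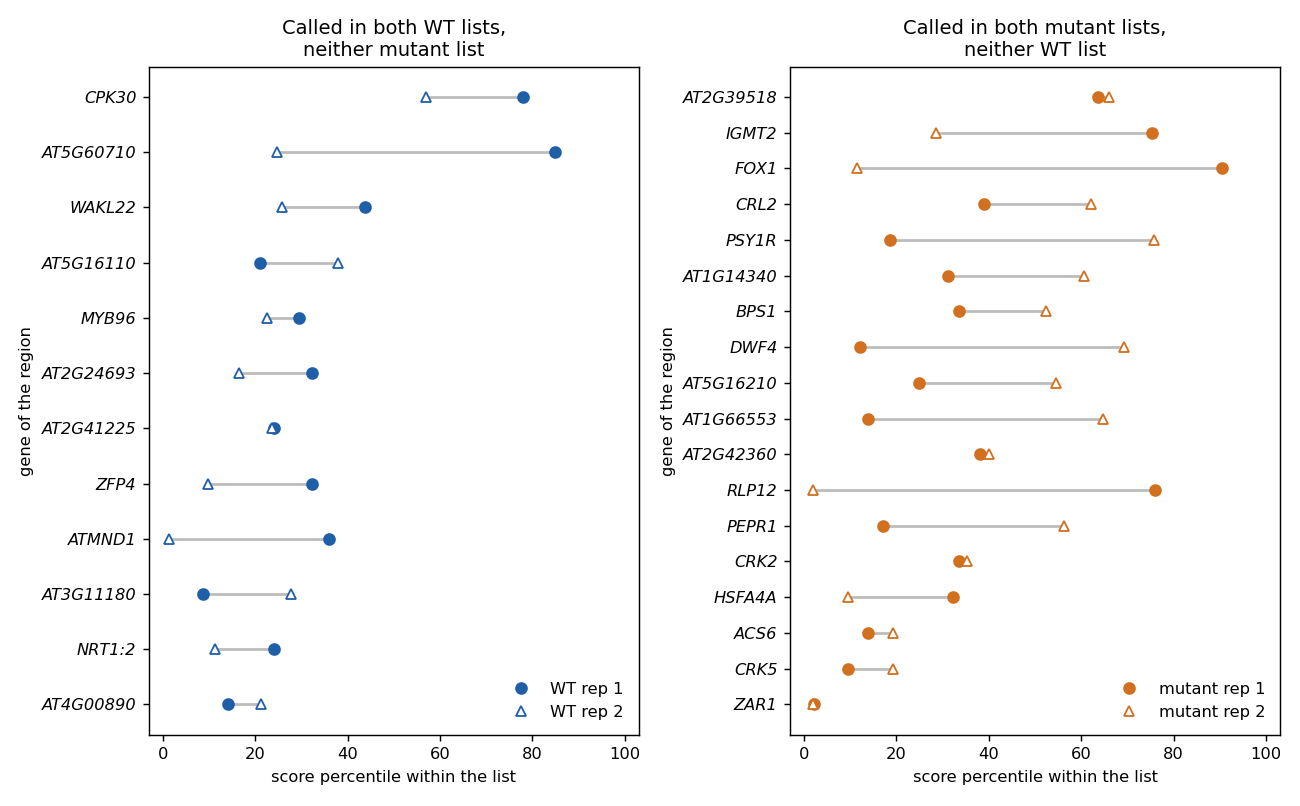
Score percentile within the list (horizontal axis, 0 to 100) of the regions named in the text that were called in both WT lists alone (left) or both mutant lists alone (right). Each pair of symbols is 1 region, with filled circles for replicate 1 and open triangles for replicate 2. Most symbols lie below 50, and several pairs are far apart, as at FOX1 (90.5 and 11.4).

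These 40 regions can be set beside the incomplete list of WT replicate 1. In mutant replicate 1, 4 of the 40 had a percentile in the upper range (above 66.7), 11 in the middle and 25 in the lowest (up to 33.3). Of all strong regions of mutant replicate 1, those in the upper range, 39 of 487 (8.01%) lacked a call in WT replicate 1. In replicate 2 the same share was 15 of 579 (2.59%). In the opposite direction 20 of 456 (4.39%) in replicate 1 and 11 of 493 (2.23%) in replicate 2 were called in WT and not in the mutant. How many of the 40 would have been among the absent peaks of WT replicate 1 was not tested.

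At 2 h few regions of any 0 h pattern, these included, were called in both lists of one genotype and neither of the other. Of the 19 regions of WT alone, 9 and 8 were called in the WT lists at 2 h and 11 and 10 in the mutant lists. None was called in both WT lists and neither mutant list, 1 showed the opposite pattern, and 5 had no peak in any 2 h list. Of the 40 regions of the mutant alone, 19 and 19 were called in the WT lists at 2 h and 26 and 29 in the mutant lists. Of these 40, 2 were again called in the mutant alone (AT1G70770 and AT4G38810), 12 were called in all 4 lists, and 2 in none. Among the 683 regions called in all 4 lists at 0 h, 0 were called in WT alone at 2 h and 13 in the mutant alone. Among the 1765 regions with any other 0 h pattern these counts were 16 and 34. Over every 0 h region the 2 h lists called 53.8% and 60.4% in WT and 59.5% and 70.5% in the mutant. Within each replicate number the mutant list thus called more of all regions than the WT list. The 2 h libraries differ from those at 0 h in both flg22 and time, and these cannot be told apart.

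Genes of several immune pathways had peaks in both genotypes. The 12 lists held 383 genes, 42 photosynthesis and 15 housekeeping genes among them as controls. Of the 383 genes 42 (11.0%) had a peak in all 4 lists, against 2.32% of 27432 protein-coding genes. The gene lists, controls included, were chosen with earlier results of these data known, so these shares are only a description. Of 50 genes of pattern perception and early signalling, 14 and 21 were called in the WT lists and 19 and 23 in the mutant lists, and 10 in all 4. PROPEP3, the precursor of a damage peptide, had 99.9 and 95.6 in WT and 99.6 and 98.6 in the mutant. CERK1, the chitin receptor kinase, had 99.4 and 90.7 in WT and 98.8 and 78.4 in the mutant. For both, the genotypes overlap. PEPR1 was the 1 gene of this list with a region called in both lists of one genotype and neither of the other.

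Of 24 genes of camalexin and indole glucosinolate synthesis, 6 were called in each WT list, 6 and 9 in the mutant lists and 4 in all 4. Of all protein-coding genes, 1258 and 1351 were called in the WT lists and 1312 and 1558 in the mutant lists. Mutant replicate 2 thus called the most genes there too. PEN2 and PEN3, which make and export indole compounds at sites of attack, had strong promoter regions in both genotypes. PEN2 had 96.9 and 92.8 in WT and 99.4 and 92.4 in the mutant, and PEN3 had 97.7 and 95.2 in WT and 99.5 and 85.6 in the mutant. Of 25 ethylene genes 3 were called in all 4 lists, among them the response factor ERF1A at 99.0 and 99.1 in WT and 97.3 and 99.2 in the mutant. Of 55 cysteine-rich and wall-associated kinases 6 were called in all 4 lists.

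Of 27 salicylic acid genes and 27 jasmonate genes 1 each was called in all 4 lists (CBP60G and LOX1). This was 3.70% of each, against 2.32% of all protein-coding genes. Of 21 intracellular receptors 2 were called in all 4 lists (RPM1 and NRG1A), of 8 VQ-motif genes 1 (VQ9) and of 18 other stress transcription factors 5. Of the control lists, none of 42 photosynthesis genes had a peak in any 0 h list. Of 15 housekeeping genes 2 had a peak in at least 1 list, as had 2286 of the 27432 protein-coding genes, and none had one in all 4. No list had more than 2 regions called in the mutant alone or more than 1 in WT alone.

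At the 683 regions called in all 4 lists, the difference in score percentile, mutant minus WT, had a median of 0.134 points and an SD of 13.5. It ran from -78.5 to 61.5, and 52 regions (7.61%) moved by more than 25 points. No region passed limma's moderated test on the percentiles (Benjamini-Hochberg adjusted p of 0.05, called share 0%). The lowest adjusted p was 0.9997, and 2 regions had an unadjusted p below 0.05. With the replicate number as a term in the limma fit none passed either (lowest adjusted p 0.571, and 17 unadjusted). Both mutant lists were above both WT lists in 66 regions (9.66%) and below them in 57 (8.35%).

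The replicate pairs showed no common direction. The same sign in both pairs was found in 339 regions (49.6%), of which 177 were higher and 162 lower in the mutant, and the opposite sign in 343. Pearson's r between the pairs was -0.00195 and Spearman's rho -0.0174 over the 683 regions, a description of regions that share libraries. Replicates of the same genotype differed by a median of 18.2 points in WT and 19.2 in the mutant. The genotypes differed by 8.05 points within pair 1 and 9.73 within pair 2.

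**Figure D4:**
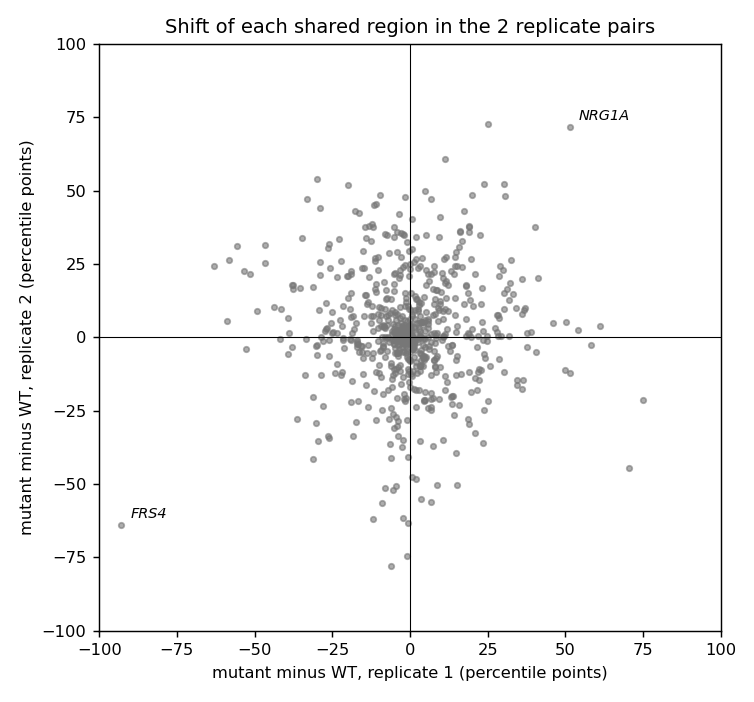
Mutant minus WT difference in score percentile at the 683 regions called in all 4 lists, in replicate pair 1 (horizontal axis) and replicate pair 2 (vertical axis), in percentile points. The cloud is centred near 0 with no slope, and FRS4 and NRG1A lie far out in the same direction in both pairs.

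The largest fall was at the promoter of FRS4, a gene related to the light signalling factor FAR1, on chromosome 1 at 28631025 to 28631345. Its percentiles were 96.6 and 73.7 in WT and 3.70 and 9.59 in the mutant. Both pairs moved the same way, and the difference was -78.5 ± 25.1 points (limma SE, n = 2 each, unadjusted p = 0.00671, adjusted p = 0.9997). This limma fit did not take account of the pairing by replicate number. At 2 h FRS4 was called in both WT lists, at 52.1 and 24.98, and in mutant replicate 2 at 56.6.

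The largest rise was at the promoter of NRG1A, a helper receptor of intracellular immunity, on chromosome 5 at 26717817 to 26718292. Its percentiles were 6.52 and 18.3 in WT and 57.9 and 89.9 in the mutant. The difference was 61.5 ± 25.1 points by the same unpaired fit (limma SE, n = 2 each, unadjusted p = 0.0268, adjusted p = 0.9997). At 2 h the region was called in mutant replicate 2 at 61.5 and in no other list. Its neighbour NRG1B had a peak in WT replicate 2 (50.3) and in both mutant lists (5.32 and 1.86).

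Among the rises without overlap between the genotypes, the next was PIRL1, a leucine-rich repeat protein gene, with 58.8 and 3.31 in WT and 83.9 and 76.2 in the mutant. NCED3, the key enzyme of abscisic acid synthesis under drought, had an upstream region at 52.7 and 35.1 in WT and 83.2 and 83.4 in the mutant. At 2 h it was at 40.5 and 62.6 in WT and 43.7 and 86.4 in the mutant. The other regions of the highest 10 were at AT1G20816, AT5G13950, AT2G13910, MPK10, AT1G77131, AT1G74360 and AT2G47150, with differences from 30.6 to 41.4 points. None of these passed the test.

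Among the falls without overlap between the genotypes, the next were PROT2, a proline transporter, with 33.5 and 69.7 in WT and 21.6 and 7.67 in the mutant, and the phloem protein gene PP2-B14, with 56.3 and 47.5 in WT and 24.9 and 5.87 in the mutant. SZF1, a zinc finger protein of salt responses, was strong in WT, at 89.8 and 95.2, and had 84.5 and 43.2 in the mutant. At 2 h SZF1 was between 84.3 and 96.2 in all 4 lists. The others were at ERO2, IBS1, AT1G30700, AT4G38550, AT4G34420 and AT4G11860, with differences from -32.8 to -29.7 points, and none passed the test. Ranked by the ef score, PROT2, IBS1, AT1G30700 and AT4G11860 were higher in the mutant, by 13.7, 12.1, 31.5 and 26.9 points.

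**Figure D5:**
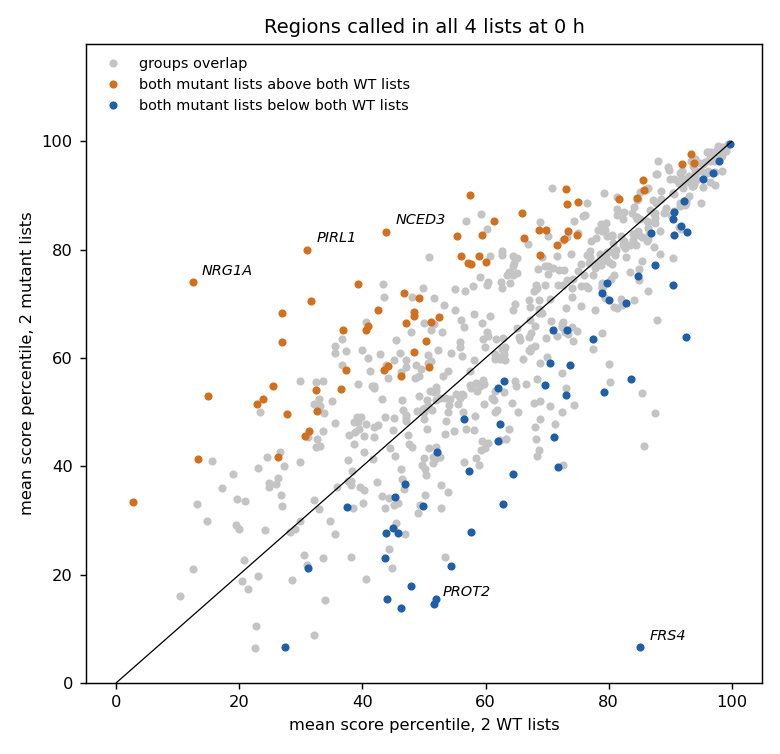
Mean score percentile in the 2 WT lists (horizontal axis) and in the 2 mutant lists (vertical axis) of each of the 683 regions called in all 4 lists at 0 h. The 66 regions with both mutant lists above both WT lists are orange and the 57 with both below are blue. Most points follow the diagonal, and FRS4 and NRG1A lie farthest from it.

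Called in every list, 494 regions could be set beside their own difference at 2 h. The correlation of the 0 h and 2 h differences across them was 0.133 (Pearson) and 0.164 (Spearman), a description with no test. Of the 66 regions higher in the mutant at 0 h, 43 were called in all 2 h lists, and in 28 of those the mutant mean was higher at 2 h too (65.1%). Of the 57 lower at 0 h, 43 were called in all 2 h lists, and in 20 of those the mutant mean was higher at 2 h (46.5%). Where the groups overlapped at 0 h the share was 58.6% of 408. By the stricter count, with no overlap at 2 h, the mutant was higher in 9 of 43 (20.9%) in both sets. It was lower without overlap in 4 of the regions higher at 0 h and in 5 of those lower at 0 h. Among the 408 these counts were 65 (15.9%) higher and 30 (7.35%) lower.

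Among the regions called in all 4 lists, the highest mean percentile was at CAD1, a phytochelatin synthase gene, on chromosome 5 at 17733912 to 17734949, with 99.7 in each WT list and 99.7 and 99.4 in the mutant. AT1G12190 followed with 100.0 and 98.9 in WT and 100.0 and 99.1 in the mutant. AT2G43620 had 99.8 and 98.2 in WT and 99.9 and 97.7 in the mutant. AT1G59910 and ACLA-1, a subunit gene of ATP-citrate lyase, completed the top 5, with values from 97.5 to 99.5. At none of these did the genotypes differ by more than 0.622 points in the mean.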

How the data were processed

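Peak lists of 4 immunoprecipitated libraries at 0 h were compared, with the 4 lists at 2 h as libraries the 0 h calls did not use. The DNA was linearly amplified after precipitation and sequenced as single-end reads, per the labels' protocols, and amplification can change the balance between fragments. Per the submitters' processing notes the build was TAIR10 and the tools were Bowtie2 2.0.5, cutadapt 1.2.1, HOMER, SAMtools 0.1.18 and FastQC 0.11.2. Which peak caller was used is not given in the sources at hand. The authors called peaks per library, and their deposited peak score is each peak's own value, on a scale not given, used only to rank peaks within a list. Ties share their mean rank, and each list holds only peaks past the authors' threshold, so a missing call is not a measured absence.

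Peaks sharing 1 bp were merged (pandas 2.3.3, numpy 2.4.6). A region took the highest percentile per list and the nearest-promoter gene of its highest peak. Names came from the RefSeq table of TAIR10.1, which held 2388 of the 2414 genes. Percentiles at regions called in all 4 lists were tested with limma 3.58.1 (trend, R 4.3.3), adjusted over 683 regions, and values per list by exact permutation. Spearman coefficients between lists were computed with scipy 1.17.1. The scripts were tested on simulated lists. Members, gene lists and tests were chosen with earlier results of these data known. Named were the 12 strongest regions per direction, every list member in a differing region, the 10 largest shifts per direction without overlap, every WRKY gene with a region and the 5 strongest shared regions. Distances to the TSS are the authors' values, and nearest genes were taken at any distance.

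By the series' design text each biological replicate covered all 4 conditions, so same-numbered libraries form a pair. Alternatives were other merging rules, list lengths, scores and thresholds, leaving out each list, and the replicate block. Lists for the input libraries were not used.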

Additional observations from a re-analysis of the deposited data

Results flagged for a closer look

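At 3 of the regions named for their shift, WT and mutant lists moved one way in both replicate pairs at 0 h and the other way in both pairs at 2 h. The difference between the times was not tested. At AT1G20816 the mean percentile in the mutant was 41.4 points above WT at 0 h and the difference was -35.5 points at 2 h. At AT1G74360 it was 32.6 points above WT at 0 h and the difference was -8.35 points at 2 h. At AT1G30700 the difference was -32.0 points at 0 h, and the mutant was 24.1 points above WT at 2 h. Ranked by the ef score, the 0 h difference at AT1G30700 was 31.5 points, the direction seen at 2 h. None of the 3 passed the limma test at 0 h, where the adjusted p was 0.9997 for each.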

How the results depend on the processing

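The counts of regions called in one genotype alone depended on the lists used. Those of WT alone and of the mutant alone were 16 and 38 with peaks cut to 150 bp, 19 and 39 with 50% overlap, and 16 and 36 counted as genes. With equal numbers of top peaks they were 26 and 22 and with an ef score of 5 or more 36 and 27, so WT then had the larger count, and above the median in both lists 1 and 1. Leaving out 1 list, whichever it was, raised both, to 72 to 170 and 127 to 343, since 1 list of a genotype then sufficed. As means within pairs (replicate block) they were 260.5 and 420.5. Over the 8 lists of both times, added after the values had been seen, they were 0 and 2 with 1 bp of overlap, 1 and 2 with 50% and 1 and 2 with cut peaks.

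Regions called in all 4 lists with the mutant higher or lower and no overlap numbered 112 and 114 by the ef score, 177 and 162 by the same sign in both pairs (replicate block), and 186 to 241 and 166 to 208 without 1 list, where fewer values can overlap. The limma test called 0 regions in every alternative run, with 1 to 24 at an unadjusted p below 0.05. By the ef score 4 of the 20 named shifts changed sign, PROT2 to 13.7, IBS1 to 12.1, AT1G30700 to 31.5 and AT4G11860 to 26.9, and 4 more moved. The cause was not tested.

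The difference in peak number was 96.5 with WT replicate 1 at its highest region number and 28 to 301 without 1 list. That in median width was 3.75 bp, and -89.25 to 96.75 without 1 list, where one replicate number then outweighs the other. The replicate block changed no other call. Calls at 2 h of the WT-alone regions, mutant minus WT in the mean, went from 2 to 0.5 with cut peaks.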

Other observations

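The share of regions that differed varied between stretches of the chromosomes, and most stretches held few such regions. The stretch of chromosome 1 from 25 to 30 Mb held 3 regions of WT alone and 8 of the mutant alone among its 154 regions (7.14%), the highest share of the 25 stretches of 5 Mb with 20 or more regions, whose median was 1.97%. The next highest share was 5.36%. This was noticed after the values had been seen and was not tested.

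Within that stretch the nitrate and abscisic acid transporter gene NRT1:2 had one region of each kind. A region at -2488 bp from the TSS was called in WT alone, at 24.1 and 11.4, and one at -4496 bp in the mutant alone, at 39.6 and 35.2. The gene was chosen after its values had been seen.

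Some gene names may hide a neighbour, since a region takes the nearest promoter. A mutant-alone region on chromosome 5 at 18790201 to 18791331 was assigned to AT5G46325, a tRNA gene, with percentiles of 64.1 and 0.436. In the RefSeq table its protein-coding neighbours are AT5G46320 and FLS2, the flagellin receptor gene. Whether the region belongs to either was not tested. At 2 h the region was called in both WT lists, at 95.0 and 44.3, and in mutant replicate 1, at 96.1. It was chosen after its values had been seen.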
